A study of Mus musculus with 44 samples.

Results

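The cytosolic ribosomal protein genes were taken as every gene whose symbol is Rpl or Rps followed by a number and optional letters, with Rplp0, Rplp1, Rplp2 and Rpsa added. The rule uses names and no measured value. It found 85 genes in either of the deposited tables, 52 of the large and 33 of the small ribosomal subunit. Of these, 84 were among the 22674 genes of the maturation table, 84 among the 18274 genes of the ovulation table, and 83 in both. Rpl6l was in the maturation table alone and Rpl32l in the ovulation table alone.

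The libraries were made from poly-A RNA of whole ovarian follicles of wild-type CD-1 mice, an outbred strain. In the maturation window 11 libraries from follicles given the solvent DMSO were compared with 10 given PFNA (perfluorononanoic acid, a fluorinated surfactant of the PFAS family). In the ovulation window 12 libraries from follicles given hCG, the hormone that triggers ovulation, were compared with 11 given hCG and PFNA. The labels give no dose, no exposure time and no number of follicles or animals per library, so p-values measure the spread between these libraries, which may be technical.

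Each cytosolic ribosome has a small subunit, which reads the mRNA, and a large subunit, which joins amino acids. Cells use nearly all of these proteins in equal numbers, so their genes are known for moving together. Most vertebrate ribosomal protein mRNAs begin with a terminal oligopyrimidine (TOP) tract, a C followed by further pyrimidines, through which the kinase mTOR and the binding protein Larp1 control their translation. Follicles enlarge by growth and division of granulosa cells, which need new ribosomes, and hCG then turns these cells towards ovulation and luteinisation.

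The starts of 8 genes are shown. Rps27, Rps6 and Rpl15 were chosen for their TOP tracts, and Rps27l, Rpl36a and Rpl36al as partners in paralogue pairs whose calls differ. Rpl10 and Rps4x were chosen for a high fold change and no run of 5 pyrimidines near the annotated start. Each stretch was read 5′ to 3′ on the strand of the gene from the RefSeq table on GRCm38.p6, with 15 bases before the annotated start and 15 from it on. Capitals mark the longest run of at least 5 pyrimidines (C or T) near the start.
Rps27, chr3:90213634-90213663, minus strand: atttccgctttcgCTCCTTTCCggcggtga
Rps27l, chr9:66946071-66946100, plus strand: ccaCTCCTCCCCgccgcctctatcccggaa
Rps6, chr4:86857353-86857382, minus strand: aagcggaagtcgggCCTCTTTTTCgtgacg
Rpl15, chr14:18270972-18271001, minus strand: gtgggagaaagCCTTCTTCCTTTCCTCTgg
Rpl36a, chrX:134585639-134585668, plus strand: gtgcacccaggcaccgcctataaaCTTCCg
Rpl36al, chr12:69184053-69184082, minus strand: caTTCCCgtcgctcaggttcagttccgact
Rpl10, chrX:74270801-74270830, plus strand: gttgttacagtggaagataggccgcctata
Rps4x, chrX:102189377-102189406, minus strand: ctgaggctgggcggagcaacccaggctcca

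Of the genes of the rule, 63 had an entry in that table. A C at the annotated start followed by at least 4 pyrimidines, searched on the strand of the gene, was found at 15 of 63 genes (23.8%), against 3.01% of all 27025 genes of the table. A run of at least 7 pyrimidines overlapping the positions from 10 bases before to 20 after the start was found at 37 of 63 (58.7%), against 27.8% of all genes. Rps27, Rps6 and Rpl15 hold the stricter form, and the annotated starts of Rpl10 and Rps4x hold no run of 5. An annotated start may lie apart from the start in use, so a missing match does not show that an mRNA has no tract.

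A few libraries stood apart. PFNA replicates 1 and 2 of the maturation window had 3.95% and 4.38% of their TPM (a level per transcript length, scaled to a fixed total per library) in 9 granulosa cell genes. Controls had 3.61 to 5.79%, and the remaining PFNA libraries 1.52 to 3.43%. In 12 oocyte genes these replicates had 0.017% and 0.015%, controls 0.017 to 0.028%, PFNA replicate 10 had 0.037% and the remaining PFNA libraries at most 0.0026%. PFNA replicate 6 of the ovulation window lay apart from its group in the ribosomal protein genes themselves, as given below. Ovulation libraries held 10600931 to 19511531 counts, and the depth of the maturation libraries is unknown because TPM are scaled to a fixed total.

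In the ovulation window PFNA-exposed follicles had more mRNA of most ribosomal protein genes. Of 81 genes tested, 65 rose and 3 fell at an adjusted p under 0.05 (edgeR's quasi-likelihood test). The background was high, since 73.2% of all 13441 genes tested were called, 38.0% higher and 35.2% lower. The median log2 fold change was 0.37 over the ribosomal protein genes, or 1.29-fold, and 0.04 over all genes tested. Scaling to library totals alone moved the median of all genes to 0.16 and that of the ribosomal protein genes to 0.50, so the gap between them was 0.34 against 0.33. Without the filter on low counts the medians were 0.26 and 0.34, and the gap fell to 0.08. In bulk follicles, more cells of a type and more RNA per cell cannot be told apart.

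In the maturation window 0 of 82 ribosomal protein genes rose and 3 fell (limma on log2(TPM + 1), adjusted p under 0.05), and at an unadjusted p under 0.05 the counts were 0 and 10. Of all 13712 genes tested 29.4% were called, 13.3% higher and 16.1% lower. The median log2 fold change of the ribosomal protein genes was -0.07 against 0.02 over all genes. When TPM were rescaled without the nuclear copies of mitochondrial genes, these medians became 0.0044 and 0.09. The gap between them was then -0.086, against -0.094 before. The nuclear copies held 20.3% ± 1.88 (SD, n = 11) of TPM in controls and 24.4% ± 1.86 (SD, n = 10) with PFNA. Their part in the small shift was not tested. Without PFNA replicates 1 and 2, 13 genes fell, 0 rose and the median was -0.11, while 5201 of all 13725 genes tested were called. These replicates had the highest ribosomal protein shares of their group, 9.09% and 9.48% of TPM, so falls were favoured.

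**Figure D1:**
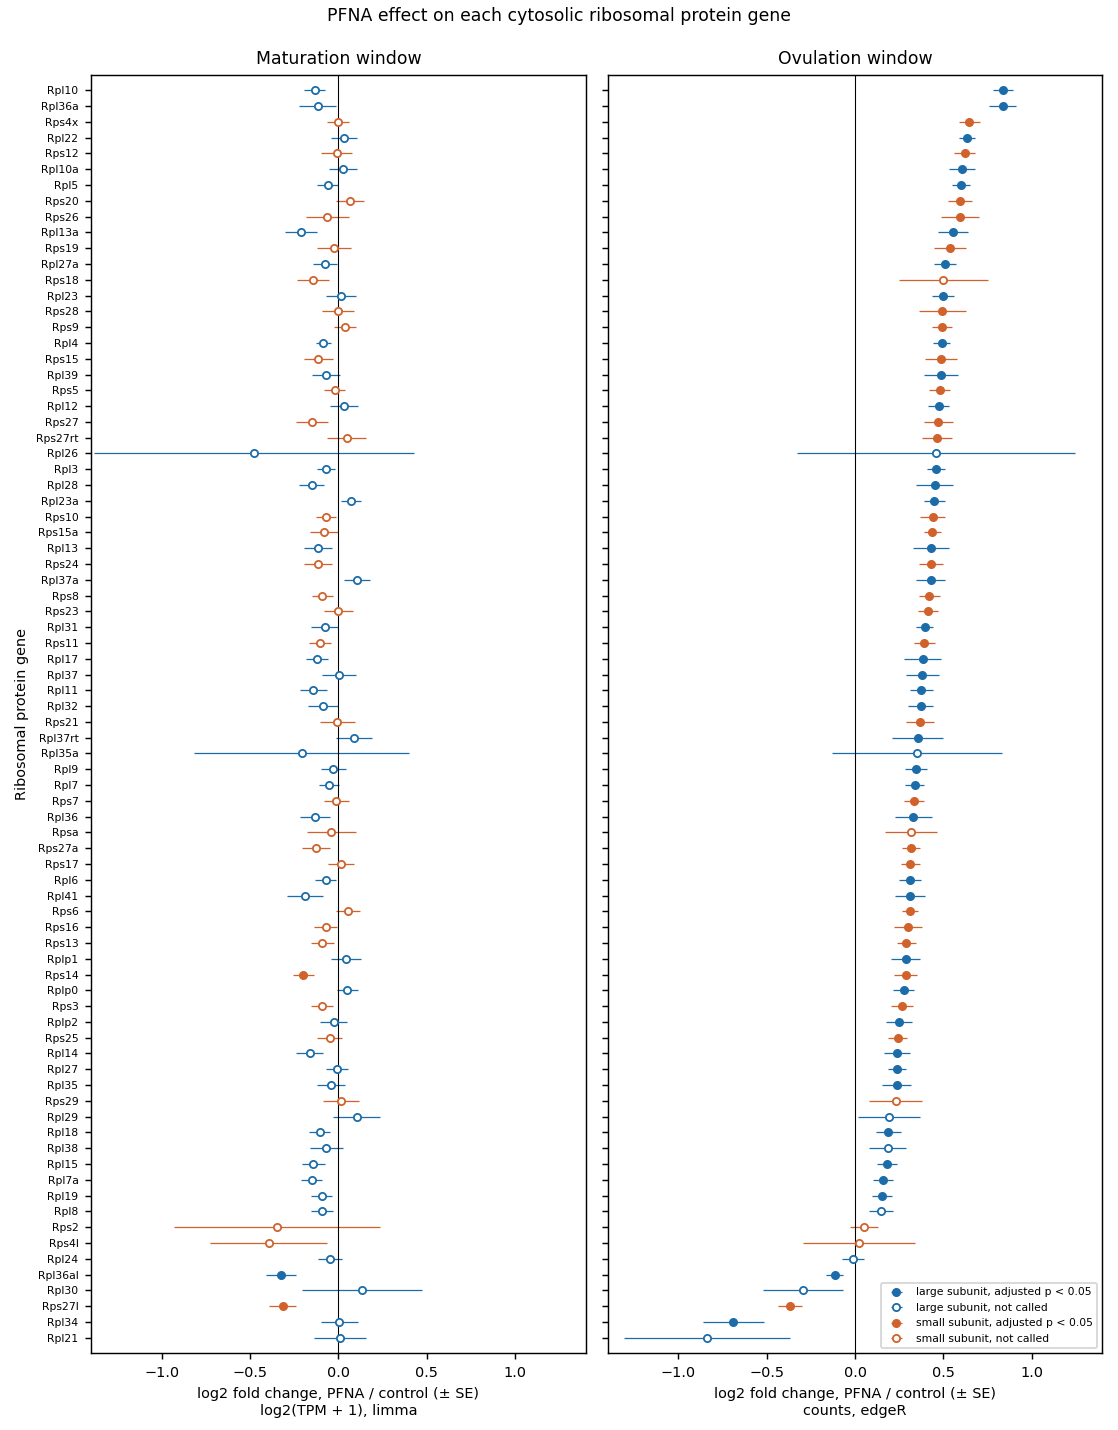
Log2 fold change of PFNA against control (x axis, bars are the standard error) for 80 of the 81 ribosomal protein genes tested in both windows (y axis), ordered by their value in the ovulation window; blue is the large and orange the small subunit, and filled points have an adjusted p under 0.05. In the maturation window 3 filled points lie below 0, and in the ovulation window 64 lie above 0 and 3 below.

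Summed over all members, the ribosomal protein share of each ovulation library ran from 2.37 to 2.73% of counts in controls (median 2.54%) and from 2.58 to 4.06% with PFNA (median 3.87%). Every PFNA library except replicate 6, at 2.58%, lay above the highest control, and replicate 7 was the next lowest at 3.18%. In the maturation window the share of TPM was 7.49 to 9.97% in controls (median 8.45%) and 7.16 to 9.48% with PFNA (median 8.16%). These ranges overlapped nearly throughout, and the shares of the 2 windows are in different units and cannot be set against each other. Without PFNA replicate 6 of the ovulation window, 70 genes rose and 3 fell, with a median of 0.39. That library was left out for its low share, so more rises were favoured.

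**Figure D2:**
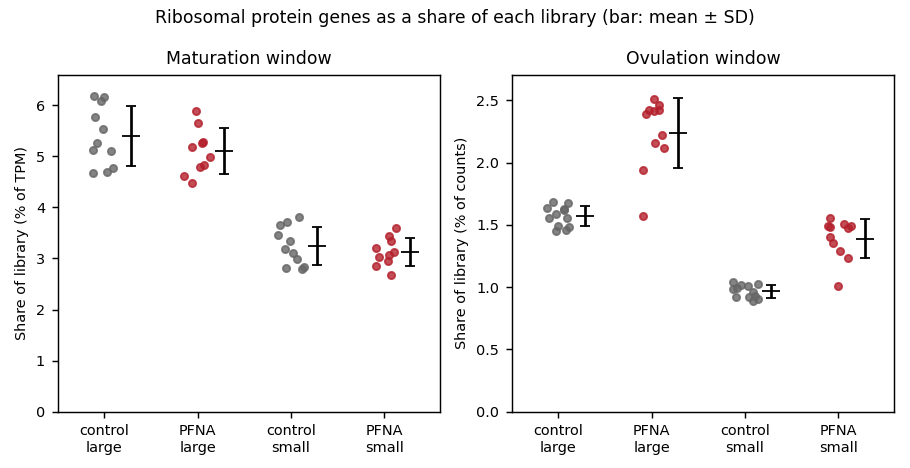
Share of each library taken by ribosomal protein genes (y axis, percent of TPM in the maturation and of counts in the ovulation window), by subunit and group (x axis); points are libraries and black bars the mean and SD. In the ovulation window the PFNA points lie above the controls except for replicate 6, and in the maturation window the groups overlap.

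With all libraries, large and small subunit genes gave similar counts and medians. In the ovulation window 38 of 48 large subunit genes rose and 2 fell, with a median log2 fold change of 0.35, and 27 of 33 small subunit genes rose and 1 fell, with a median of 0.41. During maturation 1 of 49 large subunit genes fell (median -0.07) and 2 of 33 small subunit genes fell (median -0.06), and no gene of either subunit rose. Without maturation PFNA replicate 1, 3 large and 2 small subunit genes fell. The counts were 5 and 2 without replicate 2, and 10 and 3 without both. Those replicates had the highest ribosomal protein shares of their group, so falls were favoured. A score per library was formed as the mean over genes of the log2 level minus the control mean. During ovulation the large subunit score minus the small subunit score ran from -0.09 to 0.08 in controls and from -0.11 to 0.02 with PFNA. These differences overlapped, while both scores were above every control in 10 of 11 PFNA libraries. Among maturation libraries the same difference ran from -0.08 to 0.08 in controls and from -0.09 to 0.08 with PFNA.

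**Figure D3:**
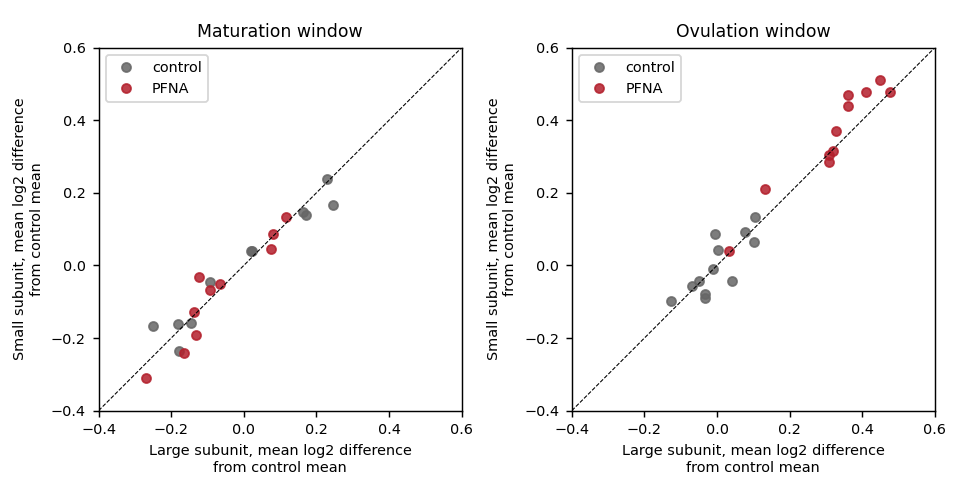
Mean log2 difference from the control mean of small subunit genes (y axis) against that of large subunit genes (x axis), one point per library; the dashed line marks equal values. Libraries of both windows lie along the line, and the ovulation PFNA libraries extend to 0.48 for the large and 0.51 for the small subunit.

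The 3 members with the highest ovulation fold change, Rpl10, Rpl36a and Rps4x, are X-linked. Rpl10 (chromosome X, 74270812 to 74273135) encodes a protein near the peptidyl transferase centre that is placed late in large subunit assembly. Its normalized level in CPM (counts scaled to a common library size) was 548 to 702 in ovulation controls (median 622) and 950 to 1247 with PFNA (median 1144), so all 11 PFNA libraries lay above every control. The log2 fold change was 0.84 ± 0.06 (SE), or 1.79-fold, with an adjusted p of 1.9e-12. In maturation follicles Rpl10 was at 2892 to 3903 TPM in controls (median 3208) and 2614 to 3435 with PFNA (median 2888), with overlapping groups and a log2 fold change of -0.13 ± 0.06 (SE) that was not called (adjusted p = 0.095). It was called lower (limma) without PFNA replicate 1 (adjusted p = 0.047), without replicate 2 (0.037) and without both (0.011). Those replicates had the highest ribosomal protein shares of their group.

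Rpl36a (chromosome X, 134585654 to 134588062), a large subunit protein at the exit site for tRNA, ran from 80.4 to 125 CPM in ovulation controls (median 104) and from 140 to 208 CPM with PFNA (median 188). The groups did not overlap, and the log2 fold change was 0.83 ± 0.08 (SE). Rps4x (chromosome X, 102184941 to 102189394), of the small subunit, ran from 458 to 605 CPM in controls (median 537) and from 728 to 940 CPM with PFNA (median 848), again without overlap, with a log2 fold change of 0.65 ± 0.06 (SE). Rpl39, the remaining X-linked member, ran from 64.3 to 120 CPM in controls (median 94.4) and from 110 to 160 CPM with PFNA (median 129), with 8 of 11 PFNA libraries above every control and a log2 fold change of 0.49 ± 0.09 (SE). The median over these 4 was 0.74, against 0.35 over the 77 autosomal members tested. Over all X-linked genes tested (482) the median was 0.20, and over the 12959 others it was 0.03. During maturation 0 of the 4 was called (limma), and none had an unadjusted p under 0.05 except Rpl10.

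The other members among the 5 highest were autosomal. Rpl22 (chromosome 4, 152325742 to 152334071), a large subunit protein with a paralogue, Rpl22l1, was at 134 to 168 CPM in ovulation controls (median 151) and 210 to 261 CPM with PFNA (median 232). Rps12 (chromosome 10, 23785183 to 23787275), of the small subunit, was at 169 to 223 CPM in controls (median 197) and 259 to 372 CPM with PFNA (median 297). Neither gene's groups overlapped, and the log2 fold changes were 0.63 ± 0.05 (SE) for Rpl22 and 0.62 ± 0.06 (SE) for Rps12. In all, 10 members rose at least 1.5-fold, among them Rpl5 and, chosen after their values were seen, Rpl10a, Rps20 and Rps26. The share of all genes that rose by this much was not computed, so the count is no result about these members.

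Among large subunit proteins with known roles, Rpl5 and Rpl11 form a particle with 5S rRNA and, outside the ribosome, bind Mdm2, the ubiquitin ligase of p53. Rpl5 was at 515 to 616 CPM in ovulation controls (median 578) and 770 to 922 CPM with PFNA (median 877), without overlap, and its log2 fold change was 0.60 ± 0.05 (SE). Rpl11 was at 283 to 352 CPM in controls (median 312) and 297 to 470 CPM with PFNA (median 410), with 9 of 11 PFNA libraries above every control and a log2 fold change of 0.38 ± 0.06 (SE). Rpl3, which lines the peptidyl transferase centre, rose without overlap from 366 to 438 CPM in controls to 474 to 590 CPM with PFNA, with a log2 fold change of 0.46 ± 0.05 (SE). Rpl4, a protein of the peptide exit tunnel, also rose without overlap, by 0.49 ± 0.05 (SE). None of these 4 was called in the maturation window (limma), where their log2 fold changes were -0.06 for Rpl5, -0.14 for Rpl11, -0.07 for Rpl3 and -0.08 for Rpl4.

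The acidic stalk proteins Rplp0, Rplp1 and Rplp2, which recruit elongation factors, rose as well. Rplp0 was at 1002 to 1253 CPM in ovulation controls (median 1093) and 1118 to 1494 CPM with PFNA (median 1388), with 9 of 11 PFNA libraries above every control. The log2 fold changes were 0.28 ± 0.06 (SE) for Rplp0, 0.29 ± 0.08 (SE) for Rplp1 and 0.25 ± 0.07 (SE) for Rplp2, with adjusted p of 0.00017, 0.0028 and 0.0043. All 3 lay below the median of the members. During maturation Rplp0 was at 1550 to 2232 TPM in controls (median 1913) and 1789 to 2110 TPM with PFNA (median 1967), and none of the 3 was called.

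In the small subunit, Rps6, the substrate of S6 kinase, was at 577 to 682 CPM in ovulation controls (median 632) and 725 to 830 CPM with PFNA (median 787). The groups did not overlap, and the log2 fold change was 0.31 ± 0.05 (SE). Rps27a, made as a fusion with ubiquitin, rose by a log2 fold change of 0.32 ± 0.05 (SE), with 9 of 11 PFNA libraries above every control. Rpsa, also known as the laminin receptor, was at 439 to 889 CPM in controls and 600 to 1211 CPM with PFNA. Its log2 fold change of 0.32 ± 0.15 (SE) was not called (edgeR, adjusted p = 0.052). It was called higher by DESeq2 (adjusted p = 0.028), and by edgeR with scaling to library totals (0.012) or by median ratios (0.039). Leaving out PFNA replicate 6 also gave a call (edgeR, adjusted p = 0.031). That library was set apart for its low ribosomal protein share, so a rise was favoured. Under the remaining alternatives Rpsa was not called.

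Over all members tested, 17 had all 11 ovulation PFNA libraries above every control, and 11.9% of all genes tested did. At least 9 such libraries were found for 53 members (65.4%), against 21.4% of all genes tested. None was found for 8 members (9.88%), against 43.9% of all genes.

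**Figure D4:**
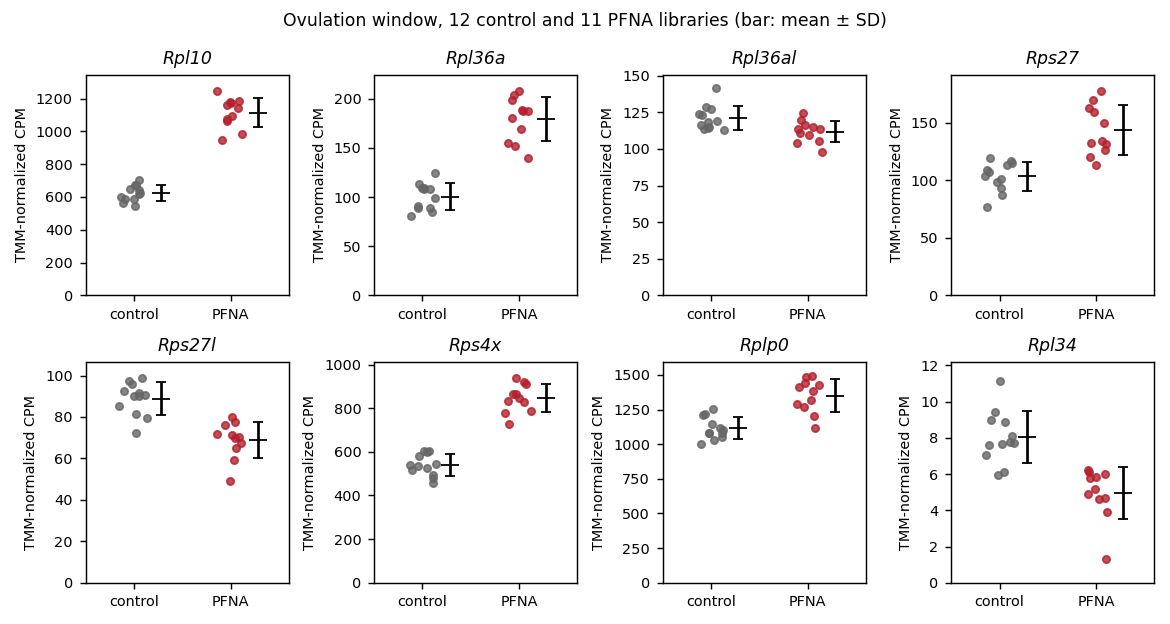
Normalized level in CPM (y axis, from 0) of 8 ribosomal protein genes in ovulation libraries (x axis, 12 control and 11 PFNA); points are libraries and black bars the mean and SD. Rpl10, Rpl36a and Rps4x show no overlap between groups, whereas Rps27l and Rpl34 are lower with PFNA in most libraries.

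Members of 2 paralogue pairs were called in opposite directions in the ovulation window. Rps27 (chromosome 3, 90212522 to 90213651) and Rps27l (chromosome 9, 66946086 to 66949516), an induced target of p53, encode nearly the same small subunit protein. Among ovulation libraries Rps27 was at 77.3 to 119 CPM in controls (median 106) and 113 to 178 CPM with PFNA (median 134), a log2 fold change of 0.47 ± 0.08 (SE). Rps27l was at 72.5 to 99.0 CPM in controls (median 90.5) and 49.1 to 79.8 CPM with PFNA (median 70.4), with 8 of 11 PFNA libraries below every control and a log2 fold change of -0.37 ± 0.07 (SE, adjusted p = 4.2e-05). The log2 ratio of Rps27 to Rps27l within a library ran from -0.08 to 0.58 in controls and from 0.77 to 1.51 with PFNA, with no overlap. In the ovulation table the row of Rps27rt, a gene whose name marks it as a retrogene, lies on the Rps27 locus, so reads of both may be split. Their sum had a log2 fold change of 0.47 ± 0.08 (SE). Both rows count among the members that rose, so this locus is counted more than once. In the maturation gene models Rps27rt lies on chromosome 9, so its rows in the windows may not be the same gene.

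Rps27l fell in the maturation window too. It was at 138 to 191 TPM in controls (median 165) and 111 to 169 TPM with PFNA (median 124), with 8 of 10 PFNA libraries below every control. The log2 fold change was -0.32 ± 0.08 (SE), with an adjusted p of 0.0033 (limma). The difference of its effect between windows was -0.05 ± 0.10 (SE, adjusted p = 0.66).

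Rpl36a and its autosomal paralogue Rpl36al (chromosome 12, 69182731 to 69184083) differed likewise. Rpl36al was at 113 to 141 CPM in ovulation controls (median 119) and 97.7 to 125 CPM with PFNA (median 113). These groups overlapped, and the log2 fold change of -0.12 ± 0.05 (SE, adjusted p = 0.034) became 0.0060 when counts were scaled to library totals. The log2 ratio of Rpl36a to Rpl36al does not depend on the scaling between libraries. It ran from -0.53 to 0.12 in ovulation controls and from 0.30 to 0.90 with PFNA, without overlap. Among maturation libraries Rpl36al was at 606 to 847 TPM in controls (median 727) and 439 to 758 TPM with PFNA (median 563), with 7 of 10 PFNA libraries below every control and a log2 fold change of -0.32 ± 0.09 (SE, adjusted p = 0.0071). There the ratio of the pair overlapped between groups, at -0.71 to -0.04 in controls and -0.56 to -0.03 with PFNA.

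No other paralogue pair compared was called in opposite directions. Rpl22l1, which the naming rule leaves out, rose in the ovulation window like Rpl22, by 0.47 ± 0.13 (SE). The log2 ratio of Rpl22 to Rpl22l1 overlapped between groups, at 2.42 to 3.02 in controls and 2.44 to 3.92 with PFNA. Rps4l, an autosomal copy of Rps4x, is a transcribed processed pseudogene in the maturation gene models. It reached 27.7 CPM in ovulation controls and 27.4 CPM with PFNA, with medians of 11.9 and 13.1 CPM, and was called in neither window. Its ovulation log2 fold change of 0.02 ± 0.32 (SE) is too imprecise to say whether it differs from Rps4x, which rose. The log2 ratio of Rps4x to Rps4l overlapped between groups, at 4.38 to 6.90 in controls and 4.93 to 7.64 with PFNA. Rpl10l and Rpl39l, which are known from male germ cells, were below the filters in both tables. In maturation follicles Rpl39l was listed at 0 in all 10 PFNA libraries and in 2 of 11 controls, whose highest value was 1.63 TPM, and Rpl10l was listed at 0 in all 10 PFNA libraries and in 8 of 11 controls. Without the filter on low values Rpl39l was called lower (log2 fold change -0.54 ± 0.15 SE, adjusted p = 0.017) and Rpl10l was not (adjusted p = 0.22). All 12 oocyte marker genes tested fell in that window too, with a median log2 fold change of -2.51, and their part in these 2 genes was not tested. Rpl32l was below 1 CPM in every ovulation library and had no count in 7 of 12 controls and 3 of 11 PFNA libraries. Without the filter on low counts it was called higher (log2 fold change 2.10 ± 0.82 SE, adjusted p = 0.026, edgeR), with 6 PFNA libraries above every control.

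Rps14 was the remaining member that fell in the maturation window. This small subunit protein gene was at 155 to 205 TPM in controls (median 180) and 136 to 179 TPM with PFNA (median 149), with 6 of 10 PFNA libraries below every control. The log2 fold change was -0.20 ± 0.06 (SE, adjusted p = 0.018), and it was not called when TPM were rescaled without the nuclear copies of mitochondrial genes (-0.12, adjusted p = 0.098). In ovulatory follicles Rps14 rose, from 529 to 659 CPM in controls to 574 to 847 CPM with PFNA, by 0.29 ± 0.06 (SE, adjusted p = 0.00033). Rps14 overlaps Ndst1 on the opposite strand in the maturation gene models, and whether strand was used in counting is not stated.

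During ovulation Rpl34 (chromosome 3, 130726831 to 130730398), of the large subunit, went the other way from most members. It was at 5.93 to 11.1 CPM in controls (median 7.74) and 1.32 to 6.20 CPM with PFNA (median 5.19), with 8 of 11 PFNA libraries below every control. The log2 fold change was -0.69 ± 0.17 (SE, adjusted p = 0.00091), and it was 0.0057 in the maturation window. Rpl34 was listed at a low level for a core ribosomal protein, as were Rpl21, Rpl29 and Rps18, which had means under 10 CPM in ovulation controls. Rpl37rt, another gene named as a retrogene, was at 5.73 to 12.6 CPM in controls (median 10.1) and 7.69 to 19.3 CPM with PFNA (median 11.7), with 5 of 11 PFNA libraries above every control. It was called higher (0.35 ± 0.14 SE, adjusted p = 0.030, edgeR), and the call was lost with the replicate block (adjusted p = 0.055). Rpl21, Rpl29, Rpl34 and Rps18 have near-identical processed copies in the genome, so their counts are uncertain. Rows named as ribosomal protein pseudogenes held 2.11 to 2.85% of TPM in the maturation libraries and at most 0.017% of counts in the ovulation libraries. There were 108 such rows in the maturation table and 7 in the ovulation table, so these shares cannot be set against each other.

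The 13 members that were not called in the ovulation window differed in their standard errors, and some called members had values as large as several of them. Among called members Rpl36 had a standard error of 0.10, Rpl37rt of 0.14 and Rpl34 of 0.17. Rpl26, Rpl35a, Rpl30, Rpl21, Rps18, Rps4l, Rpl29, Rps29, Rpsa and Rpl38 had standard errors of 0.10 to 0.79 on the log2 scale, and the standard errors of Rpl24, Rps2 and Rpl8 were 0.06, 0.08 and 0.07. Rpl26 overlaps the row Gm15772 and Rpl30 the row Gm12191 on the same strand. Summed with that row, Rpl26 still ran from 1.97 to 190 CPM in controls and from 1.97 to 272 CPM with PFNA. Rpl24, whose log2 fold change was -0.01 ± 0.06 (SE), had the smallest standard error of the 13.

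The level per transcript length can be compared between genes in the maturation controls only. The highest means were Rpl41 at 3711 ± 554 TPM, Rplp1 at 3707 ± 571, Rpl10 at 3216 ± 282, Rpl8 at 2788 ± 271 and Rpl13 at 2471 ± 319 (SD, n = 11). Of the neighbours in this order, Rpl10 and Rpl8 alone differed by more than the SD of both genes. Rpl21 was the only tested member under 10 TPM, at 8.87 ± 2.04 TPM (SD, n = 11).

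The PFNA effect differed between windows for most members. It was higher in the ovulation window for 63 of 81 members and lower for 1, Rpl34, where 67.7% of 11215 genes were called, 32.0% higher and 35.6% lower (limma in each table, Satterthwaite degrees of freedom). The median difference was 0.43 over the members and -0.04 over all genes. The smallest p for a higher effect were those of Rpl10 (0.97 ± 0.08 SE), Rpl4 (0.58 ± 0.06 SE) and Rpl5 (0.66 ± 0.08 SE). Next to Rpl34, the smallest p for a lower effect were those of Rpl21 (-0.36 ± 0.24 SE) and Rpl30 (-0.45 ± 0.40 SE), neither of them called. By the calls within windows, 64 members rose in the ovulation window and were not called in the maturation window, 2 fell in both (Rps27l and Rpl36al), 1 fell in the first and rose in the second (Rps14), and 13 were called in neither. The units and gene models of the tables differ, so a part of each difference may come from them and was not tested. Rps27rt, counted among the members with a higher effect, lies at different loci in the 2 gene models.

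Members with and without a TOP form at the annotated start had similar medians. The median ovulation log2 fold change was 0.36 over the 14 tested members with the stricter form, of which 11 rose and 0 fell (edgeR), and 0.40 over the 46 without it, of which 39 rose and 3 fell. For the run of at least 7 pyrimidines the medians were 0.43 over 35 members with it and 0.35 over 25 without. Of the 3 highest, Rpl10 and Rps4x have no run of 5 pyrimidines near the annotated start and Rpl36a has one of 5 bases. A match of letters is a description and not a test of translation, which these libraries did not measure. Annotated starts may be imprecise, so the members without a match may include genes whose mRNAs carry a TOP tract.

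Ribosomal proteins and associated factors that the naming rule leaves out were mostly called higher as well. Among ovulation libraries 5 of 6 rose, with a median log2 fold change of 0.39. Fau, which encodes Rps30 fused to a ubiquitin-like protein, rose by 0.43 ± 0.06 (SE). Rack1, a scaffold on the small subunit, rose by 0.26 ± 0.07 (SE). Rpl7l1, a nucleolar homologue of Rpl7, fell by 0.997 on the log2 scale in the ovulation window (adjusted p = 6.8e-13). During maturation it was at -0.16 (adjusted p = 0.045), and its call was lost when TPM were rescaled without the nuclear copies of mitochondrial genes.

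Most genes of RNA polymerase I and of subunit assembly fell in the ovulation window, where most ribosomal protein genes rose and 35.2% of all genes fell. Of 22 genes of RNA polymerase I, which transcribes rRNA, and its factors, 17 fell and 1 rose (Taf1b, 0.40 ± 0.09 SE), with a median of -0.38. The smallest p for a fall was that of Polr2l, a small subunit shared by the nuclear RNA polymerases, at -1.24 ± 0.12 (SE), and the initiation factor Ubtf was at -0.31 ± 0.08 (SE). Of 52 large subunit assembly genes 39 fell and 4 rose, with a median of -0.46. Bop1, which acts in processing of 28S rRNA, was at -1.15 ± 0.09 (SE), and Nsa2 at 0.38 ± 0.04 (SE). Of 59 small subunit assembly genes 44 fell and 2 rose, with a median of -0.42. Nop9 was at -1.29 ± 0.08 (SE), and the rRNA acetyltransferase Nat10 at 0.40 ± 0.10 (SE). Of 6 box H/ACA genes, whose particles make pseudouridine in rRNA, 2 fell (33.3%, near the share of all genes) and 0 rose by the same edgeR test, and 4 were not called. Of these genes Nhp2 was at -0.51 ± 0.10 (SE). Scaled to library totals, the medians were -0.25, -0.34, -0.30 and -0.08 in the same order, with 13, 34, 37 and 2 genes lower.

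**Figure D5:**
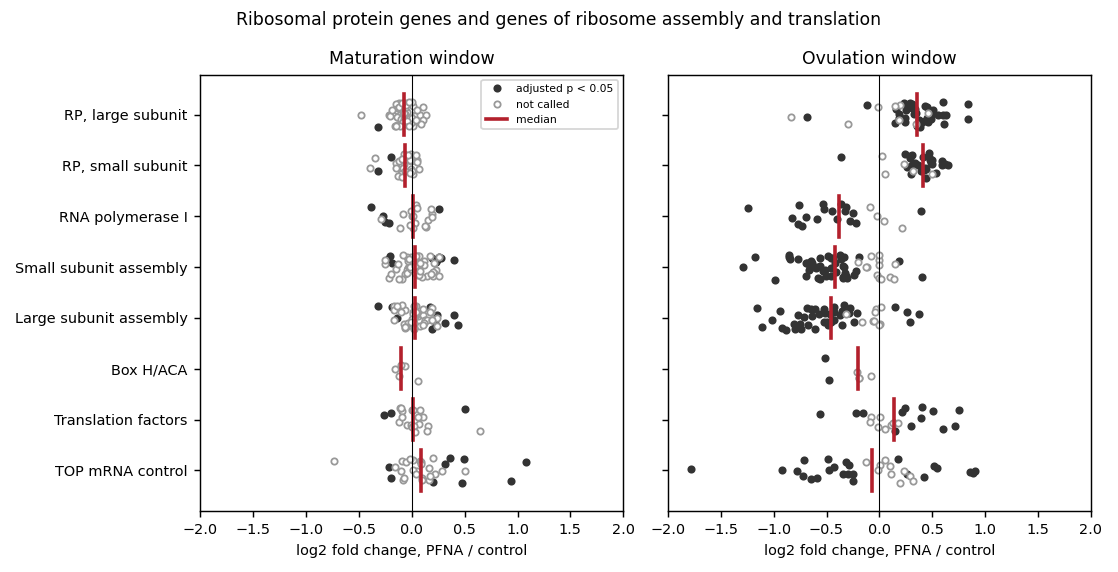
Log2 fold change of PFNA against control (x axis) for ribosomal protein (RP) genes by subunit and for lists of ribosome assembly and translation genes (y axis); filled points have an adjusted p under 0.05, and red bars are medians. In ovulatory follicles the subunit medians are 0.35 and 0.41, and those of the polymerase I and assembly lists -0.38, -0.42 and -0.46; the maturation medians run from -0.10 to 0.09, and their signs depend on the scaling for several lists.

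Translation factors and other genes whose mRNAs are known to carry TOP tracts were divided. During ovulation 11 of 22 rose and 3 fell (against 38.0% and 35.2% of all genes), with a median of 0.14, and 16 rose when counts were scaled to library totals. Of 7 subunits of initiation factor 3 in the list 6 rose and 1 fell. Those that rose include Eif3f (0.75 ± 0.05 SE), Eif3e (0.60 ± 0.05 SE) and Eif3h (0.51 ± 0.05 SE), and the elongation factor Eef2 rose too (0.72 ± 0.06 SE). Eef1a1, at 0.11 ± 0.06 (SE), was not called. Those that fell were Btf3, a subunit of the nascent chain complex, at -0.22 ± 0.04 (SE), Eif3l at -0.15 ± 0.05 (SE) and the actin-binding Tmsb4x at -0.56 ± 0.14 (SE). During maturation the intermediate filament gene Vim rose and Hnrnpa1 and Nap1l1, which bind RNA and histones, fell. Rescaled without the nuclear copies of mitochondrial genes, which moved the median of all genes to 0.09, 3 genes of the list rose and 1 fell. The fall of Nap1l1 was then no longer called (-0.12 ± 0.06 SE, limma, adjusted p = 0.15).

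Regulators of TOP mRNAs and of ribosomal gene transcription went in both directions. Among ovulation libraries 8 of 34 rose and 16 fell (23.5% and 47.1%, against 38.0% and 35.2% of all genes), with a median of -0.07. Scaling to library totals gave 14, 13 and a median of 0.05, and moved the median of all genes to 0.16. The kinase gene Mtor was at -0.49 ± 0.05 (SE), its partner Rptor at -0.92 ± 0.07 (SE) and the TOP-binding Larp1 at -0.43 ± 0.07 (SE), all called lower. Rheb, the GTPase that activates this kinase, rose by 0.90 ± 0.09 (SE), and Myc by 0.43 ± 0.14 (SE). During maturation 7 of 33 rose and 2 fell (21.2% and 6.06%, against 13.3% and 16.1% of all genes). The counts were 13 and 0 when rescaled without the nuclear copies of mitochondrial genes, which moved the median of all genes from 0.02 to 0.09. Before rescaling, Myc was at 1.08 and Sesn3, an inhibitor of the pathway, at 0.94 (limma, adjusted p = 0.0018 and 0.00087).

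In the maturation window, where 13.3% of all genes were called higher and 16.1% lower, few assembly genes were called. Of 52 large subunit assembly genes 7 rose (13.5%) and 3 fell (5.77%), with a median of 0.03. Of 59 small subunit assembly genes 6 rose (10.2%) and 3 fell (5.08%), with a median of 0.03, and of 22 polymerase I genes 1 rose (4.55%) and 4 fell (18.2%), with a median of 0.01. Rescaled without the nuclear copies of mitochondrial genes, the counts were 17 and 1, 14 and 0, and 3 and 1. That rescaling moved the median of all genes from 0.02 to 0.09 and the number called from 4030 to 4658 of 13712. These counts are therefore not to be read against the shares above. Ftsj3, an rRNA methyltransferase, was at 0.40 ± 0.10 (SE) and Mrto4, of the large subunit list, at -0.32 ± 0.09 (SE).

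Transcript length and level were compared because ribosomal protein mRNAs are short and abundant. Of the members tested in the ovulation window 65 have annotated transcripts under 1 kb, with a median log2 fold change of 0.38, against 0.07 over the 2087 other genes of that length. Over 2442 other genes with a mean of at least 100 CPM the median was -0.15. During maturation the medians were -0.07 over the short members, -0.06 over 2035 other short genes and -0.07 over 1118 other genes that averaged 100 TPM or more.

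Cell type markers were called in the same libraries. In ovulatory follicles 5 of 6 endothelial, 3 of 7 immune, 6 of 9 granulosa, 7 of 12 oocyte and 4 of 9 theca and stroma genes rose with PFNA, and 0, 0, 2, 0 and 2 fell (edgeR). Of all genes 38.0% rose and 35.2% fell, and the immune and theca shares that rose are near the former. The summed granulosa genes held 1.27 to 1.69% of counts in controls and 1.19 to 1.63% with PFNA, and the summed endothelial genes 0.0036 to 0.013% and 0.0036 to 0.040%. PFNA replicate 6, whose ribosomal protein share was within the control range, had the lowest endothelial share of its group, at 0.0036%. It also had the lowest theca and stroma share of its group, at 0.11%, and the highest granulosa share, at 1.63%. PFNA replicate 7, with the next lowest ribosomal protein share, did not share these traits. Its endothelial, theca and granulosa shares were 0.016%, 0.20% and 1.20%, against group medians of 0.017%, 0.14% and 1.49%. Among maturation libraries 12 of 12 oocyte and 5 of 9 granulosa genes fell and 0 rose (limma). Of 4 immune genes tested 2 rose and 0 fell, of 9 theca and stroma genes 0 rose and 1 fell, and of 5 endothelial genes 0 rose and 0 fell. Of all genes 13.3% rose and 16.1% fell in that window. No marker of granulosa, theca or oocyte cells had a group mean of 0, the immune marker Cd52 was listed below 1 CPM or TPM in each group, and the part of cell makeup in the ribosomal protein results was not tested.

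Members varied together within groups as well. The median correlation between pairs of members, over log2 levels, was 0.76 across 11 maturation controls, 0.54 across 10 maturation PFNA libraries, 0.30 across 12 ovulation controls and 0.50 across 11 ovulation PFNA libraries. Members of a library share its depth and scaling, so these values describe the libraries and are no test.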

How the data were processed

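The 2 windows come as separate gene tables. The maturation values the authors deposited are TPM, found from the values, since each library summed to 1000000, although the file calls them counts. The ovulation values the authors deposited are estimated counts, of which 9.82% were not whole within 0.01, and these were rounded. Partek, Bowtie2 and HISAT2 are named per the submitters' processing notes, with no version or role. The genome build, annotation and use of strand are not given in the sources used here. Gene starts matched GENCODE M21 (GRCm38) for 99.4% of matched maturation symbols and 37.2% of ovulation symbols. Coordinates are 1-based from the maturation table, and RefSeq sequences are on GRCm38.p6. Transcript lengths are per-gene medians in GENCODE M21.

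Columns were joined to samples by title. A maturation column that differed by a letter from the title of control replicate 6 was taken as that sample, and maturation control replicate 4 was not analysed here. No value column was left unused. No pair of libraries in a group was identical (lowest chi-square per degree of freedom 7.22 for counts, highest correlation 0.981 for TPM).

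For the maturation table limma 3.58.1 was run on log2(TPM + 1) with trend and robust set, keeping genes that averaged 1 TPM or more. This scale understates changes of low genes. Ovulation was fitted with edgeR 4.0.16 in R 4.3.3 (TMM, filterByExpr, robust = TRUE). That test returns no standard error. The standard errors given for edgeR are the absolute log2 fold change over the square root of the F statistic, and are approximate. P-values were adjusted by the Benjamini-Hochberg method over all genes tested, and called under 0.05. DESeq2 1.42.0, other scalings, filters and pseudocounts, a replicate block and left-out libraries were alternatives. Scripts were tested on simulated data. Sums and figures used Python 3.11.15.

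The members and gene lists were chosen with earlier results of these data known. Genes named were the 5 highest and 5 lowest called per window, the 5 highest in TPM, those under 10 TPM or CPM, a panel of role and paralogue genes, the 3 highest and lowest differences between windows, and per list the gene with the smallest p in each direction. Others were chosen after their values were seen. Some genes are counted but not reported by name here.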

Additional observations from a re-analysis of the deposited data

Results flagged for a closer look

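The PFNA effect of 22 of the 32 named ribosomal protein genes tested in both windows differed between the ovulation and the maturation window by a test of the difference itself (limma in each table, Satterthwaite degrees of freedom, adjusted p under 0.05). The share over all 11215 genes was close to that, at 67.7%, so the count itself is no result about these genes. The differences below are on the log2 scale, ovulation minus maturation. Among large subunit genes they were 0.97 for Rpl10, 0.95 for Rpl36a, 0.66 for Rpl5, 0.60 for Rpl22, 0.58 for Rpl4, 0.56 for Rpl39, 0.53 for Rpl3, 0.51 for Rpl13 and 0.51 for Rpl11. Smaller values were those of Rpl41 at 0.48, Rpl7a at 0.30, Rplp2 at 0.27, Rpl19 at 0.24, Rpl8 at 0.23 and Rplp0 at 0.22. Among small subunit genes they were 0.65 for Rps4x, 0.63 for Rps12, 0.61 for Rps27, 0.48 for Rps14, 0.44 for Rps27a and 0.26 for Rps6. Rpl34 alone of the 22 had the lower effect in the ovulation window, at -0.64 (adjusted p = 0.0021). In 36 results searched for a maturation PFNA library far from the other 9, 0 were found, where chance gives about 1.8.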

How the results depend on the processing

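Of the 65 ovulation members that rose, 62 to 65 were also called higher under each alternative. Counts scaled to library totals moved the median of all members to 0.50, of the large subunit to 0.48 and of the small to 0.54, and reversed Rpl36al, to 0.0060. In the maturation window the rescaling without nuclear copies of mitochondrial genes called 1 member higher, Rpl23a. The count of members that fell was 3 with all libraries. It was 3 to 7 with 1 of 4 libraries left out (PFNA replicates 1, 2 and 10 and control replicate 6). The number of members called lower was 5 without PFNA replicate 1, 7 without PFNA replicate 2 and 13 without both, and the cause was not tested. Over all genes 4030 were called with all libraries, 4581 without replicate 1, 4588 without replicate 2 and 5201 without both. Without filters, 4 fell in the maturation window, and the ovulation median of all genes was 0.26 against 0.34 for the members.

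Replicate numbers did not pair the samples: same-numbered libraries correlated by -0.20 to 0.21 over 9 maturation pairs and by -0.23 to 0.11 over 11 ovulation pairs, and 1 pair of each was over 0.1. With the replicate block, 64 members rose and 3 fell in the ovulation window (median 0.37), and 0 rose and 3 fell in the maturation window (median -0.03). DESeq2 called 67 higher and 2 lower. Summing members with their pseudogene rows, without ovulation PFNA replicate 6 and summing overlapping rows were chosen after seeing the data, and gave 4 lower, 70 higher and 64 higher. Of values of named genes under the alternatives, 828 of 862 kept their direction and side of the threshold. Depth behind the TPM is unknown, and counts under 10 CPM limit Rpl21, Rpl29, Rpl34, Rpl37rt and Rps18.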
